A study of Mus musculus with 12 samples.

Results

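The levels of 10 signaling, feedback and target genes of the canonical WNT pathway were followed by RNA-seq in osteocyte-like cells. They were chosen by name for their place in the pathway, with earlier results of these data known, and found by Ensembl gene ID. These 10 of the 37583 gene IDs counted were the co-receptors Lrp5 and Lrp6, the R-spondin receptor Lgr4, β-catenin (Ctnnb1), the TCF/LEF factors Tcf7, Lef1 and Tcf7l2, and the feedback inhibitors Axin2, Nkd1 and Nkd2. The cells were Ocy454, an osteocytic line derived from mouse long bone that carries a temperature-sensitive T antigen and was used as a single sub-clone. RNA-seq was performed on 12 libraries in 4 groups of 3. The cells were control (labelled as original cells) or DKO (labelled as carrying deletions of both HDAC4 and HDAC5, class IIa histone deacetylases that repress transcription), either kept static or put under fluid-flow shear stress (FFSS), with a labelled time point of 3 h in all groups. FFSS was produced by agitating the dishes on a platform. All controls carry the original genotype and all DKO libraries the deletions, so genotype and any other difference between the cell populations cannot be told apart. The labels number the replicates but do not call them separate cultures, so the p-values measure the spread between these samples, which may be technical.

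In canonical WNT signaling, a WNT ligand brings a Frizzled receptor together with LRP5 or LRP6, which blocks the complex that marks β-catenin for destruction. β-catenin then accumulates, enters the nucleus and works with TCF/LEF factors to switch on target genes, among them several that restrain the pathway in turn. R-spondins bound to LGR receptors protect Frizzled receptors from removal, and in bone the osteocyte product sclerostin, encoded by Sost, blocks LRP5 and LRP6.

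Gene totals were 17.6 to 19.2 M reads per library. Control FFSS replicate 1 stood apart from its group, with a chi-square per degree of freedom of 68.7 and 62.5 against replicates 2 and 3, whereas all other pairs of replicates gave 2.10 to 6.90. The share of reads outside annotated genes was 4.25 to 4.34% in control static cells, 4.90, 7.75 and 8.53% in control FFSS replicates 1, 2 and 3, 6.07 to 6.12% in DKO static cells and 6.80 to 7.30% in DKO FFSS cells. The first annotated ID of Hdac4 was lower in every DKO library than in any control library (12.1 to 17.0 against 23.9 to 42.6 CPM, counts per library total scaled by edgeR's TMM factors, which correct for differences in RNA composition), as was the second (16.1 to 18.1 against 19.7 to 31.1 CPM), whereas Hdac5 levels overlapped (80.2 to 93.3 against 71.1 to 141 CPM), and counts over a whole gene do not test a short deletion. Of the osteocyte markers, Sost was at 0.0977 to 12.4 CPM in control and 1741 to 2097 CPM in DKO libraries, Dmp1, Phex and Mepe were also higher in every DKO library, and Mepe was at most 0.211 CPM in control libraries. Pdpn went the other way, at 27.6 to 51.3 CPM in control libraries and at most 7.96 CPM in DKO libraries, and Fgf23 had at most 1 count in any library. The 6 osteocyte markers summed to 62.5 to 184 and 3602 to 4025 CPM. Summed levels of 6 chondrocyte markers were 52.1 to 104 CPM in control and 2016 to 2965 CPM in DKO libraries, with Acan and Matn3 overlapping, and those of 7 osteoblast IDs 6456 to 23660 and 58265 to 65682 CPM, with Alpl overlapping. The 4 haematopoietic markers summed to 15.5 to 28.5 and 2.80 to 3.45 CPM, Cd68 being the highest of them at 14.2 to 28.2 and 2.17 to 2.86 CPM, and 4 endothelial and 4 skeletal muscle markers to at most 0.537 and 0.110 CPM. The osteocyte, osteoblast, chondrocyte and haematopoietic sums thus differed between genotypes without overlap, as did that of 4 adipocyte markers (1.73 to 2.53 and 0.280 to 1.28 CPM), whereas the endothelial and muscle sums overlapped, and their part in the genotype differences described here was not tested.

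The first comparison asked how the 10 genes differ between DKO and control cells in static culture. Lgr4, Tcf7l2 and Lrp5 were higher in DKO cells, and Nkd1, Nkd2, Axin2 and Tcf7 were lower, each by more than 2-fold. Lef1 and Lrp6 were also higher, by less than 2-fold, and Ctnnb1 did not pass the test. A gene was called when edgeR's quasi-likelihood test gave a Benjamini-Hochberg adjusted p under 0.05 over all 14904 genes tested and the change was over 2-fold. All 10 genes entered the test. By this rule 7 of 10 were called, 3 higher and 4 lower, against 15.3% of all genes tested, and 9 of 10 passed the adjusted p alone, 5 higher and 4 lower, against 54.2%. The 3 DKO libraries lay entirely above or below the 3 control libraries for 10 of 10 genes, where 69% of all genes tested did so. Over the 10 genes the log2 fold change had a median of 0.0702, beside 0.01 over all genes, and higher and lower genes were nearly equal in number. Fewer cells of a kind and less RNA per cell cannot be told apart in such libraries.

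**Figure D1:**
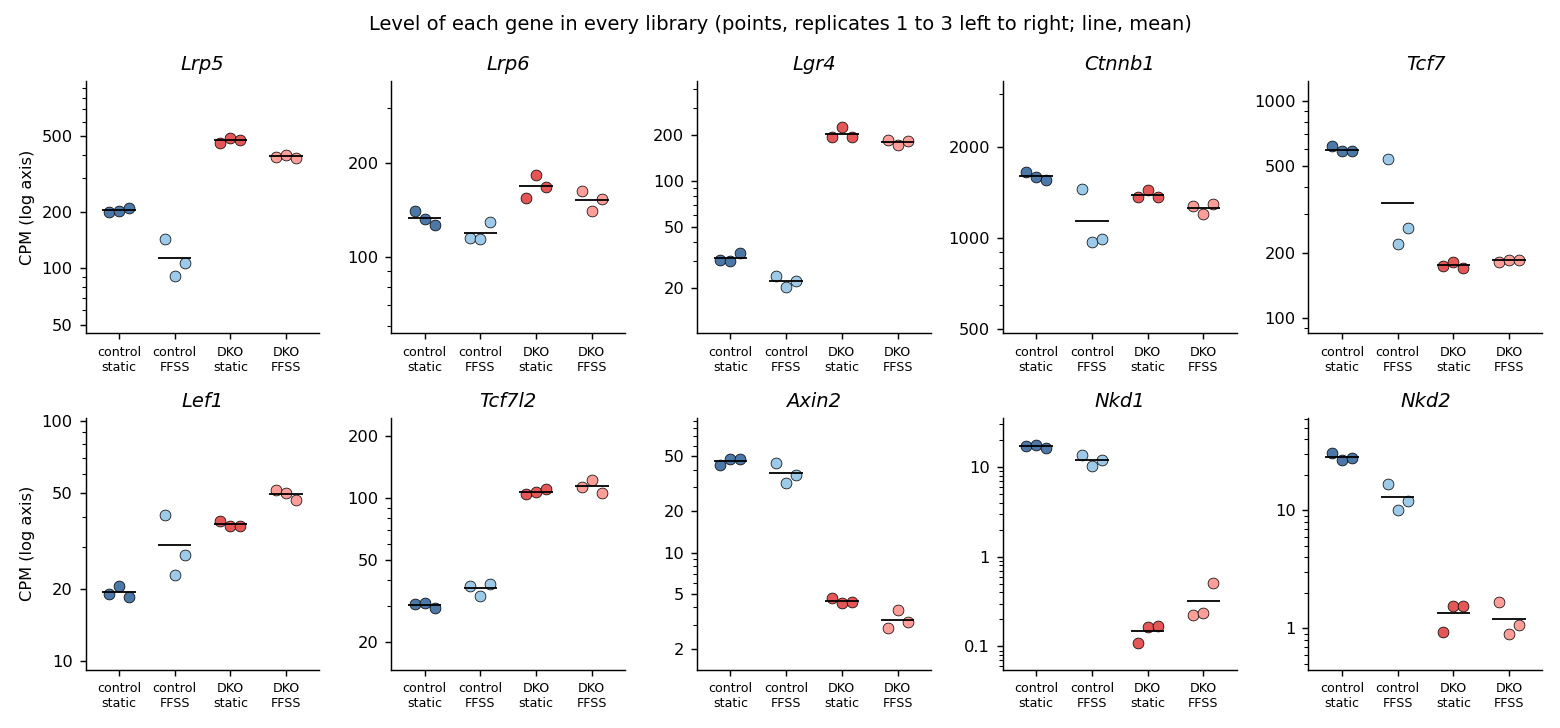
Level of each of the 10 genes in every library, in CPM on TMM-scaled totals, on log axes whose range differs between panels. Points are replicates 1 to 3 from left to right and lines are group means; Axin2, Nkd1, Nkd2 and Tcf7 lie lower in all 6 DKO libraries than in all 6 control libraries, Lgr4, Lrp5, Tcf7l2 and Lrp6 higher.

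Among the receptors, Lrp5 (ENSMUSG00000024913, chr19:3584825-3686564 in mm9) had 3757, 3848 and 3978 counts in control static libraries and 8357, 8961 and 8622 in DKO static libraries. The DKO libraries were all higher, at 477 ± 16.2 against 203 ± 5.78 CPM (mean ± SD, n = 3), with a log2 fold change that came to 1.23 ± 0.12 (SE; edgeR adjusted p = 2.35e-06). Lrp6 (ENSMUSG00000030201, chr6:134396494-134516983), the other co-receptor, had 2650, 2546 and 2401 counts in control and 2803, 3345 and 3018 in DKO static libraries. The groups did not overlap, but the rise was small, from 133 ± 6.85 to 168 ± 14.7 CPM (log2 fold change 0.34 ± 0.08, edgeR adjusted p = 0.00194). Lgr4 (ENSMUSG00000050199, chr2:109757804-109854414), which binds R-spondins, was at 30.5, 29.8 and 34.0 CPM in control static libraries and 194, 225 and 193 CPM in DKO static libraries. Every DKO library exceeded every control library several-fold, with means of 204 ± 18.7 and 31.4 ± 2.23 CPM, and Lgr4 had the highest log2 fold change of the 10 genes (2.70 ± 0.08, edgeR adjusted p = 2.20e-11).

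Ctnnb1 (ENSMUSG00000006932, chr9:120838334-120869625) encodes β-catenin, the transducer of the signal. It had 31259, 30547 and 29662 counts in control static libraries and 24978, 26268 and 24608 in DKO static libraries. All 3 DKO libraries were lower, at 1394 ± 41.2 against 1602 ± 46.4 CPM, but the log2 difference of -0.20 ± 0.12 did not pass (edgeR adjusted p = 0.179). The test uses a spread estimated over all 12 libraries, control FFSS included. With only the 6 static libraries fitted, the same difference passed (adjusted p = 5.56e-05), and likewise without control FFSS replicate 1 (-0.20, adjusted p = 0.000113). It was -0.28 and also passed with library totals alone (adjusted p = 0.0235). With the share of reads outside genes as a covariate it was 0.09 and did not pass (adjusted p = 0.25). That share did not overlap between control and DKO static libraries, so this fit cannot tell it apart from genotype. Ctnnb1 shares 240 exon bases (4.71% of its exon length) with Ulk4 on the opposite strand, which averaged 63 counts beside 25180 for Ctnnb1.

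The TCF/LEF factors, the DNA-binding partners of β-catenin, moved in opposite directions. Tcf7 (ENSMUSG00000000782, chr11:52065873-52096681), which encodes TCF1, had 11664, 11260 and 11108 counts in control static libraries and 3155, 3286 and 3066 in DKO static libraries. The DKO libraries were all far lower, at 175 ± 5.11 against 596 ± 17.9 CPM (log2 fold change -1.77 ± 0.28, edgeR adjusted p = 0.000500). Tcf7l2 (ENSMUSG00000024985, chr19:55816300-56008144), which encodes TCF4, was at 30.5, 31.0 and 29.4 CPM in control and 104, 107 and 110.4 CPM in DKO static libraries. It was the reverse of Tcf7, with every DKO library higher, at 107 ± 3.00 against 30.3 ± 0.830 CPM (log2 fold change 1.83 ± 0.07, edgeR adjusted p = 1.68e-10). Lef1 (ENSMUSG00000027985, chr3:130813389-130927274) had 362, 396 and 351 counts in control and 701, 664 and 662 in DKO static libraries. It too was higher in all DKO libraries, at 37.3 ± 1.14 against 19.4 ± 1.10 CPM, just inside the 2-fold limit (log2 fold change 0.94 ± 0.16, edgeR adjusted p = 0.000280).

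The 3 feedback inhibitors were the most reduced of the 10 genes in DKO cells. Axin2 (ENSMUSG00000000142, chr11:108781663-108812097) encodes a scaffold of the β-catenin destruction complex and had 814, 918 and 908 counts in control static libraries and 85, 79 and 79 in DKO static libraries. No library overlapped, at 46.2 ± 2.76 and 4.47 ± 0.183 CPM (log2 fold change -3.37 ± 0.13, edgeR adjusted p = 2.10e-10), a ratio of control over DKO of 10.4 (95% interval 9.07 to 11.9). Nkd1 (ENSMUSG00000031661, chr8:91045243-91118786) encodes an inhibitor that binds Dishevelled and had 324, 338 and 311 counts in control static libraries but 2, 3 and 3 in DKO static libraries. The transcript was therefore close to undetected in DKO cells, with 8 counts in all against 973, a ratio of 116 (58.6 to 269). Its fitted log2 fold change was -6.79 ± 0.24 (edgeR adjusted p = 7.77e-11). Nkd2 (ENSMUSG00000021567, chr13:73955982-73985079), its paralogue, was at 30.5, 26.5 and 27.6 CPM in control static libraries and 0.935, 1.54 and 1.56 CPM in DKO static libraries, the latter from 17, 28 and 28 counts. These groups were again far apart, at 28.2 ± 2.06 and 1.34 ± 0.353 CPM, a ratio of 21.0 (16.6 to 27.0) and a log2 fold change of -4.39 ± 0.23 (edgeR adjusted p = 4.36e-09). The intervals of the ratios are exact binomial intervals on summed counts and cover counting error only, since PCR reads without molecular identifiers are not independent molecules.

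Under FFSS the same comparison of DKO with control cells called 6 of 10 genes, 3 higher and 3 lower, against 17.2% of all genes tested. The adjusted p alone passed 9 of 10, 5 higher and 4 lower, against 56.6%. DKO and control libraries did not overlap for 9 of 10 genes, where 58.4% of all genes did not. This comparison and the static one use different libraries, but the fit estimates 1 spread from all 12. Counts of Nkd1 were 264, 208 and 242 in control FFSS and 4, 4 and 9 in DKO FFSS libraries, a ratio of 36.9 (22.9 to 63.6), with a log2 fold change of -5.18 ± 0.22 (edgeR adjusted p = 3.56e-10). Nkd2 had 328, 205 and 243 counts in control FFSS and 30, 15 and 19 in DKO FFSS libraries (log2 fold change -3.41 ± 0.25, edgeR adjusted p = 8.10e-08). For Axin2 the counts were 877, 655 and 739 against 51, 64 and 56 (log2 fold change -3.54 ± 0.14, edgeR adjusted p = 2.19e-10). In all 3 inhibitors every DKO FFSS library lay below every control library, flowed or static.

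The 3 receptors were again higher in DKO cells under FFSS. Lgr4 had 463, 413 and 445 counts in control FFSS and 3340, 2897 and 3270 in DKO FFSS libraries, which were all higher (log2 fold change 3.03 ± 0.08, edgeR adjusted p = 8.96e-12). Counts of Lrp5 were 2789, 1860 and 2149 against 7072, 6733 and 6912 (1.79 ± 0.12, edgeR adjusted p = 1.01e-07). Lrp6 counts were 2233, 2337 and 2620 against 2947, 2363 and 2749, a smaller difference (0.35 ± 0.08, edgeR adjusted p = 0.00154) that did not pass with library totals in place of TMM factors (0.15, adjusted p = 0.128). Of the nuclear factors, Tcf7l2 had 733, 688 and 773 counts in control FFSS and 2062, 2072 and 1893 in DKO FFSS libraries, with no overlap (1.65 ± 0.07, edgeR adjusted p = 3.80e-10). Lef1, with 791, 468 and 562 against 934, 847 and 836 counts, was also higher in every DKO library (0.71 ± 0.15, edgeR adjusted p = 0.00174).

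Relative to its mean, Tcf7 varied most of the 10 genes between the control FFSS libraries, with an SD of 173 on a mean of 339 CPM. Its counts were 10452, 4483 and 5249 in control FFSS libraries and 3282, 3117 and 3309 in DKO FFSS libraries. The DKO libraries were all lower, and the log2 fold change was -0.88 ± 0.28 (edgeR adjusted p = 0.0218), but replicate 1 of control FFSS was close to static cells and the other replicates were nearer to the DKO level. Without that replicate the difference was -0.38 and still passed (adjusted p = 8.31e-07). It did not pass with only the 6 FFSS libraries fitted (-0.86, adjusted p = 0.0808), nor without DKO FFSS replicate 1, 2 or 3 (-0.87 to -0.88, adjusted p = 0.053 to 0.0576). Ctnnb1 had 28346, 19936 and 20105 counts in control FFSS and 23092, 20199 and 23134 in DKO FFSS libraries, which overlapped (0.14 ± 0.12, edgeR adjusted p = 0.345). Without control FFSS replicate 1 the Ctnnb1 difference was 0.35 and passed (adjusted p = 1.59e-07), and with library totals alone it was -0.05 (adjusted p = 0.699). The Ctnnb1 difference also passed with the share of reads outside genes as a covariate (0.15, adjusted p = 0.00947).

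**Figure D2:**
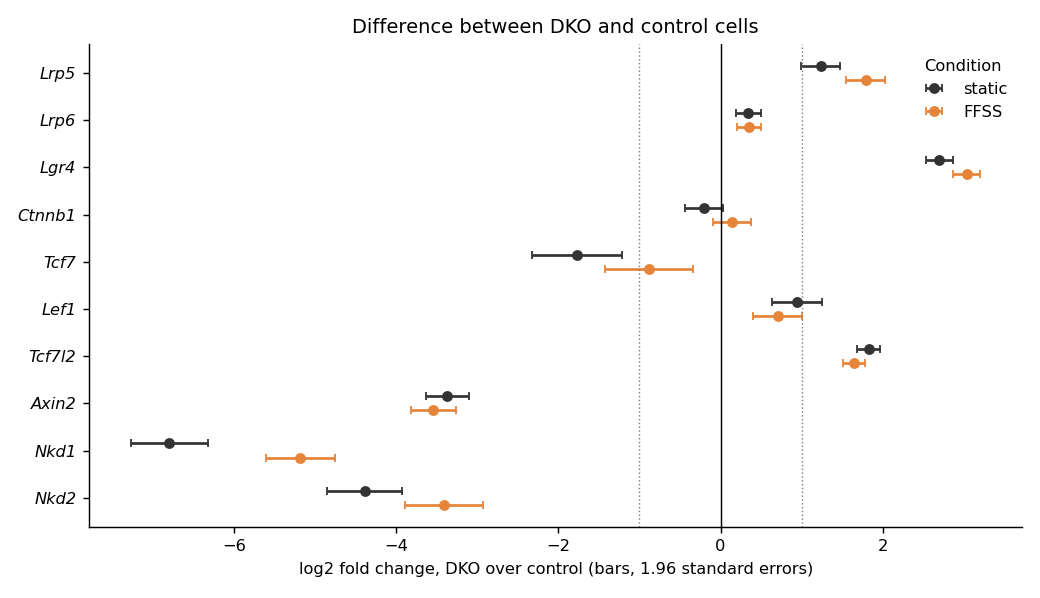
Log2 fold change of DKO over control cells for the 10 genes in static (black) and FFSS (orange) cells, with bars of 1.96 standard errors from the edgeR fit and dotted lines at 2-fold. The bars are narrower than the F test implies. Nkd1 has the lowest value in both conditions (-6.79 and -5.18) and Lgr4 the highest (2.70 and 3.03).

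Levels per length show the relative amounts of the 3 TCF/LEF genes followed here (Tcf7, Tcf7l2 and Lef1) and of the pair Lrp5 and Lrp6. RPKM, CPM per kilobase of exon, was used for these comparisons between genes. In control static cells Tcf7 was at 214 RPKM and made up 97.4% of the summed level of the 3 TCF/LEF genes, with Tcf7l2 at 1.58% and Lef1 at 1.02%. DKO static cells had 79.0% Tcf7, 15.5% Tcf7l2 and 5.44% Lef1, at a sum of 79.2 ± 1.68 against 219 ± 6.42 RPKM. These shares and sums leave out Tcf7l1, another TCF/LEF gene, treated below with the other pathway genes. Tcf7l1 was at 21.7 ± 0.861 RPKM in control static cells, above Tcf7l2 (3.47) and Lef1 (2.24). In DKO static cells Tcf7l1 was at 67.2 ± 1.93 RPKM, beside 62.6 ± 1.83 for Tcf7. Counting Tcf7l1 would lower the share of Tcf7 in both groups and narrow the difference between the sums. The ratio of Tcf7 to Tcf7l2 was 61.6 ± 2.11 in control static cells, against 5.10 ± 0.237 and 5.06 ± 0.387 in DKO cells without and with FFSS. Control FFSS libraries lay between and were uneven, at 44.7, 20.4 and 21.3 for replicates 1, 2 and 3. Lrp5 exceeded Lrp6 in every library, with a ratio of 2.90 ± 0.229 in control static and 5.39 ± 0.289 in DKO static cells. Under FFSS this ratio was 2.37, 1.51 and 1.56 in the control replicates and 4.91 ± 0.444 in DKO cells. The library values of both ratios did not overlap between control and DKO cells in either condition, which describes the differences already given and was not tested separately.

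**Figure D3:**
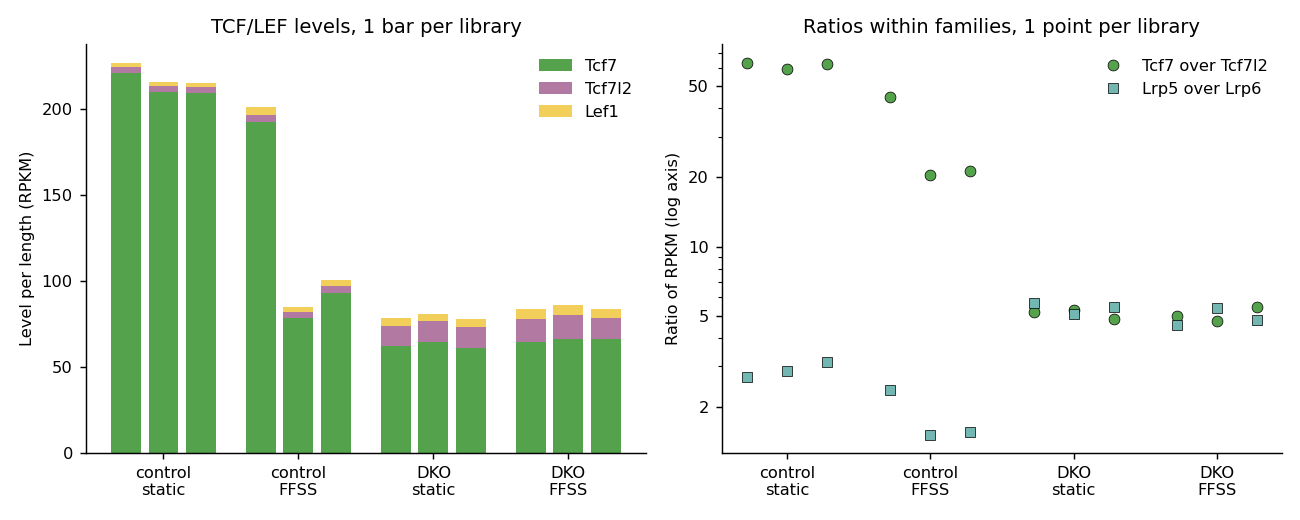
Left, summed level of Tcf7, Tcf7l2 and Lef1 in RPKM, without Tcf7l1, 1 stacked bar per library in the order of replicates. Right, ratio of Tcf7 to Tcf7l2 (circles) and of Lrp5 to Lrp6 (squares) in each library on a log axis; the first ratio is 59.3 to 63.3 in control static and 4.83 to 5.27 in DKO static libraries, the second 2.69 to 3.15 and 5.09 to 5.66.

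The order of the 10 levels was clear in DKO cells and less so in control cells under FFSS. From highest to lowest, control static cells held Ctnnb1 (314 RPKM), Tcf7 (214), Lrp5 (39.2), Lrp6 (13.5), Axin2 (8.39), Nkd2 (5.97), Lgr4 (5.34), Nkd1 (3.82), Tcf7l2 (3.47) and Lef1 (2.24). Of these neighbours, Nkd2 and Lgr4 overlapped and the other pairs did not. DKO static cells held Ctnnb1 (273 RPKM), Lrp5 (92.2), Tcf7 (62.6), Lgr4 (34.7), Lrp6 (17.2), Tcf7l2 (12.3), Lef1 (4.31), Axin2 (0.811), Nkd2 (0.284) and Nkd1 (0.0330), and no neighbours overlapped. The feedback inhibitors took the bottom of the order in DKO cells, below all receptors and nuclear factors. DKO FFSS cells had the same order with no overlap, whereas in control FFSS cells Ctnnb1 overlapped Tcf7, and Tcf7l2, Lgr4, Lef1 and Nkd2 each overlapped the gene below, Nkd1 being last.

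The second comparison asked how FFSS for 3 h changed the genes in control cells. Nkd2, Lrp5, Lgr4, Nkd1, Ctnnb1 and Tcf7 fell, and Lef1 and Tcf7l2 rose, whereas Axin2 and Lrp6 did not pass the test. Nkd2 was the 1 gene of 10 called (5.93% of all genes tested), and 8 of 10 passed the adjusted p alone (35.8%), 2 higher and 6 lower. FFSS and static libraries did not overlap for the same number of genes, 8 of 10, where 41.3% of all genes did not. The median log2 fold change was -0.501, beside 0.00728 over all genes. Nkd2 went from 28.2 ± 2.06 to 13.0 ± 3.52 CPM, with log2 differences from the static mean of -0.74, -1.48 and -1.22 in replicates 1, 2 and 3 (fitted -1.12 ± 0.17, edgeR adjusted p = 0.000497). Lrp5 fell by 0.84 ± 0.12 on the log2 scale (edgeR adjusted p = 0.000384), from 203 to 114 ± 27.0 CPM. Lgr4 fell by 0.51 ± 0.08 (edgeR adjusted p = 0.000598) and Nkd1 by 0.52 ± 0.13 (edgeR adjusted p = 0.00695), and in each all FFSS libraries were below all static ones. With the share of reads outside genes as a covariate Nkd1 was at -0.32 and did not pass (adjusted p = 0.187). The share was higher in every control FFSS library than in any control static library, and lowest of the FFSS libraries in replicate 1. Fits with this covariate, here and below, therefore cannot tell the share apart from FFSS.

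Replicate 1 of control FFSS differed from the other replicates in several of these genes. Its Tcf7 level was 0.15 below the static mean on the log2 scale, where replicates 2 and 3 were 1.44 and 1.20 below. The fitted fall of 0.82 ± 0.27 (edgeR adjusted p = 0.0447) no longer passed in 14 of 20 alternative analyses. These included leaving out control FFSS replicate 2 or 3 (-0.58 and -0.66, adjusted p = 0.098 and 0.142), any static library or any DKO library, and adding the share of reads outside genes as a covariate (-0.02, adjusted p = 0.954). Ctnnb1 fell by 0.49 ± 0.12 (edgeR adjusted p = 0.00813), with -0.14, -0.72 and -0.69 in the 3 replicates, and with that covariate the difference was -0.07 and did not pass (adjusted p = 0.628). Lef1 rose by 0.65 ± 0.16 (edgeR adjusted p = 0.00884), and here replicate 1 was the highest, at 1.06 beside 0.24 and 0.52. Tcf7l2 rose by 0.27 ± 0.07 (edgeR adjusted p = 0.0109), with 0.31, 0.15 and 0.34 in the 3 replicates. With only the 6 control libraries fitted, Lef1, Tcf7l2, Ctnnb1 and Tcf7 did not pass (adjusted p = 0.0602, 0.0574, 0.0655 and 0.135). Axin2, with 0.03, 0.53 and 0.33 below the static mean, had a log2 fold change of -0.29 ± 0.11 (edgeR adjusted p = 0.0557), and did not pass in 17 of 20 alternatives. It passed with RLE size factors (-0.30, adjusted p = 0.0483), with no filter on low counts (-0.30, adjusted p = 0.0364) and without control FFSS replicate 1, and with the covariate it was -0.0042 (adjusted p = 0.987). That of Lrp6 was -0.15 ± 0.08 (edgeR adjusted p = 0.137).

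Without control FFSS replicate 1, 3 of 10 genes were called for FFSS in control cells, where 11.3% of all genes were, and 9 of 10 passed the adjusted p, where 55% did. The genes called were Lrp5 (-1.04), Tcf7 (-1.32) and Nkd2 (-1.36), and Axin2 passed (-0.43, adjusted p = 2.68e-05). Without control FFSS replicate 2 0 of 10 genes were called, where 3.73% of all genes were, since Nkd2 (-0.97) was then inside 2-fold. The directions of all 10 genes were those of the full fit in both cases. With the share of reads outside genes as a covariate the 1 gene called was another, Lef1 (1.14), and Nkd2 (-0.67) passed but was inside 2-fold.

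**Figure D4:**
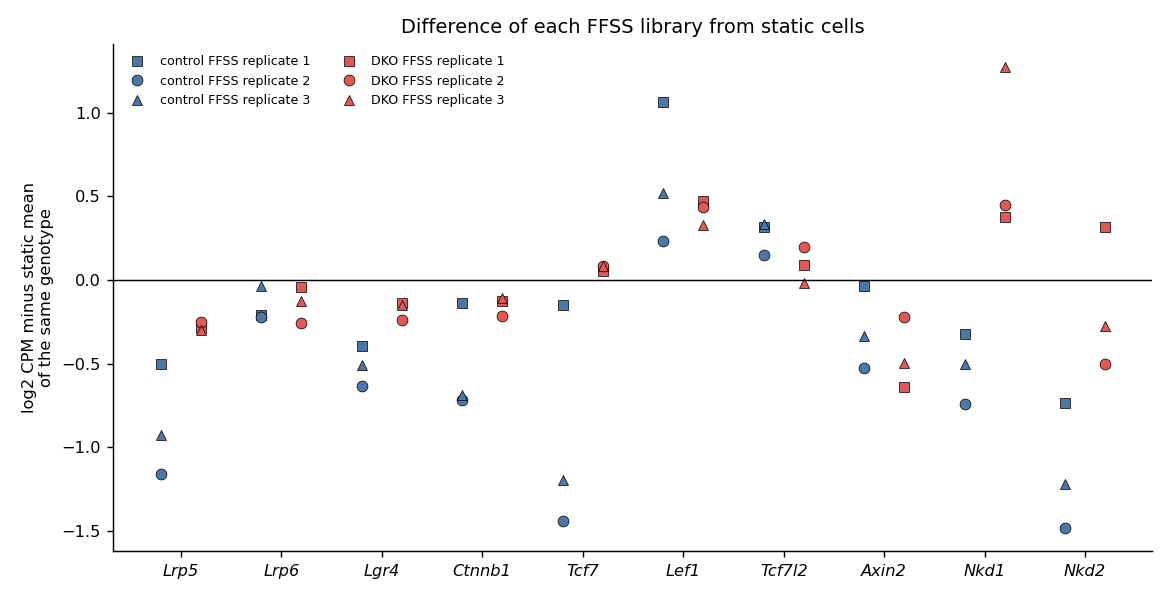
Log2 CPM of each FFSS library minus the mean of the static libraries of the same genotype (blue, control; red, DKO; squares, circles and triangles, replicates 1, 2 and 3). Control replicate 1 is nearest to 0 for Tcf7 (-0.15) and Ctnnb1 (-0.14) and farthest for Lef1 (1.06), and in DKO cells the values of Tcf7 lie between 0.06 and 0.09.

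In DKO cells none of the 10 genes passed edgeR's test for FFSS with all 12 libraries fitted together. The count was 0 of 10 called (0.0872% of all genes tested) and 0 of 10 past the adjusted p (0.872%), with 4 of 10 at an unadjusted p under 0.05 (13.5% of all genes). DESeq2 also passed 0 of 10 and called 0 (2.68% and 0.101% of all genes). The FFSS and static libraries of DKO cells nevertheless did not overlap for 7 of 10 genes, 3 higher and 4 lower, where 29.9% of all genes did not. Lef1 had log2 differences of 0.47, 0.43 and 0.33 in replicates 1, 2 and 3 (fitted 0.41 ± 0.15, edgeR adjusted p = 0.258), and Axin2 of -0.64, -0.22 and -0.50 (-0.46 ± 0.17, edgeR adjusted p = 0.236). Lrp5 was 0.25 to 0.30 lower in the 3 replicates (-0.28 ± 0.12, edgeR adjusted p = 0.325). Tcf7, the most abundant of the TCF/LEF genes among the 10, was 0.06 to 0.09 higher (0.07 ± 0.28, edgeR adjusted p = 0.951). Nkd1 went from 2, 3 and 3 counts to 4, 4 and 9, and the fitted 1.10 ± 0.48 did not pass (edgeR adjusted p = 0.398). Over the 10 genes the median was -0.146, beside -0.00941 over all genes.

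The spread behind these tests is shared by all groups, and control FFSS cells varied most. Their biological coefficient of variation was 0.190, where control static, DKO static and DKO FFSS cells had 0.0328, 0.0448 and 0.0358. With the 6 DKO libraries fitted alone, 4 of 10 genes passed for FFSS in DKO cells, where 11.9% of all genes did: Lef1 (0.42), Lrp5 (-0.27), Lgr4 (-0.17) and Ctnnb1 (-0.14). Without control FFSS replicate 1, which holds no DKO cells, 5 of 10 passed, Axin2 (-0.46, adjusted p = 0.0437) besides these 4, where 10.5% of all genes passed. No gene was called in either.

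The interaction, the FFSS effect in DKO cells minus that in control cells, asked whether the response to FFSS differed with genotype. By edgeR 0 of 10 genes were called (0.651% of all genes tested) and 0 of 10 passed the adjusted p (3.97%), with 5 of 10 at an unadjusted p under 0.05 (23.8%). DESeq2 passed 1 (7.54% of all genes), Lrp5 (0.57, adjusted p = 0.0231). In the edgeR fit Lrp5 had an interaction of 0.56 ± 0.17 (adjusted p = 0.0841), Nkd1 of 1.61 ± 0.50 (adjusted p = 0.0856) and Lgr4 of 0.33 ± 0.11 (adjusted p = 0.107). Nkd1 was below the static mean in all 3 control FFSS libraries and above it in all 3 DKO FFSS libraries, and so was Tcf7 (0.89 ± 0.39, edgeR adjusted p = 0.205). The values of Nkd2 and Ctnnb1 were 0.98 ± 0.38 (edgeR adjusted p = 0.151) and 0.34 ± 0.17 (edgeR adjusted p = 0.243). Approximate 95% intervals of 1.96 standard errors were -0.67 to 0.20 for Lef1, -0.37 to 0.01 for Tcf7l2, -0.56 to 0.22 for Axin2 and -0.21 to 0.23 for Lrp6. Those of the other genes lay above 0: Lrp5 0.23 to 0.89, Lgr4 0.11 to 0.56, Ctnnb1 0.0079 to 0.67, Tcf7 0.13 to 1.65, Nkd1 0.63 to 2.60 and Nkd2 0.22 to 1.73. These intervals are unadjusted and narrower than the test implies, since Ctnnb1 had an unadjusted edgeR p of 0.0665. The median over the 10 genes was 0.337, beside -0.0168 over all genes.

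This comparison rested on control FFSS replicate 1. Without it, 3 of 10 genes were called, where 7.6% of all genes were, and 6 of 10 passed the adjusted p, where 37.6% did. Those that passed were Tcf7 (1.39, adjusted p = 1.75e-14), Lrp5 (0.76, adjusted p = 3.19e-09), Ctnnb1 (0.55, adjusted p = 5.16e-08), Nkd2 (1.21, adjusted p = 0.00206), Lgr4 (0.39, adjusted p = 0.00299) and Nkd1 (1.72, adjusted p = 0.0176). All 6 values were positive, as in the full fit. Those of Nkd1 and Nkd2 rest on few reads in DKO cells, 2 to 9 and 15 to 30 counts per library. Leaving out any other library passed none of the 10 genes.

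The other genes of the pathway were read from a list of 82 gene IDs, of which 69 were tested. In DKO against control static cells 53 of 69 passed the adjusted p, 24 higher and 29 lower, and 21 were called, 8 higher and 13 lower, beside 54.2% and 15.3% of all genes tested, the shares to set beside each role as well. Under FFSS 49 passed and 20 were called, 10 in each direction, beside 56.6% and 17.2%. Of 16 receptor genes tested, 8 were called in static cells, 3 higher and 5 lower. The receptor Ror1 was removed by the filter on zero counts and not tested, at 65 to 83 counts in control static and 0 to 1 in DKO static libraries, and is named after its values were seen. Lgr6, another R-spondin receptor, and Fzd8, a Frizzled, were higher (log2 fold change 2.49 ± 0.20 and 1.53 ± 0.08), and Fzd4 and Rnf43, a ligase that removes Frizzled receptors, were lower (-1.24 ± 0.14 and -1.15 ± 0.24). Lgr5, a further R-spondin receptor, had few reads, 11 to 14 counts in control static and 2 to 5 in DKO static libraries. It too is named after its values were seen. Among transducers 2 of 10 were called, both lower: Dixdc1 (-1.96 ± 0.24) and Porcn, which acylates WNT ligands (-1.87 ± 0.10). The 10 genes of the destruction complex other than Axin2 held 0 called, with 5 higher and 3 lower past edgeR's adjusted p and 8 at an unadjusted p under 0.05 among them. Of 14 nuclear factors 3 were called: the co-repressor Tle2 (1.83 ± 0.28) and Tcf7l1 (1.63 ± 0.18), which encodes TCF3, were higher, and the co-repressor Tle4 was lower (-1.81 ± 0.17). Of 17 targets 8 were called, 3 higher and 5 lower.

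The targets included large falls beside rises. Tnfrsf19 and Apcdd1, which encodes a WNT inhibitor, were at 63.5 ± 4.27 and 28.5 ± 0.285 CPM in control static and 3.09 ± 0.728 and 1.73 ± 0.430 CPM in DKO static cells (-4.36 ± 0.47 and -4.04 ± 0.43). Ccnd2, encoding a cyclin, and Tbx3 were higher (1.61 ± 0.46 and 1.14 ± 0.11). The edgeR adjusted p of these 13 named pathway genes, Lgr5 left aside, were between 2.17e-09 and 0.0152. Ccnd2 lost its call with the share of reads outside genes as a covariate (0.55, adjusted p = 0.133). The other 12 kept their direction and stayed past the adjusted p in every alternative.

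**Figure D5:**
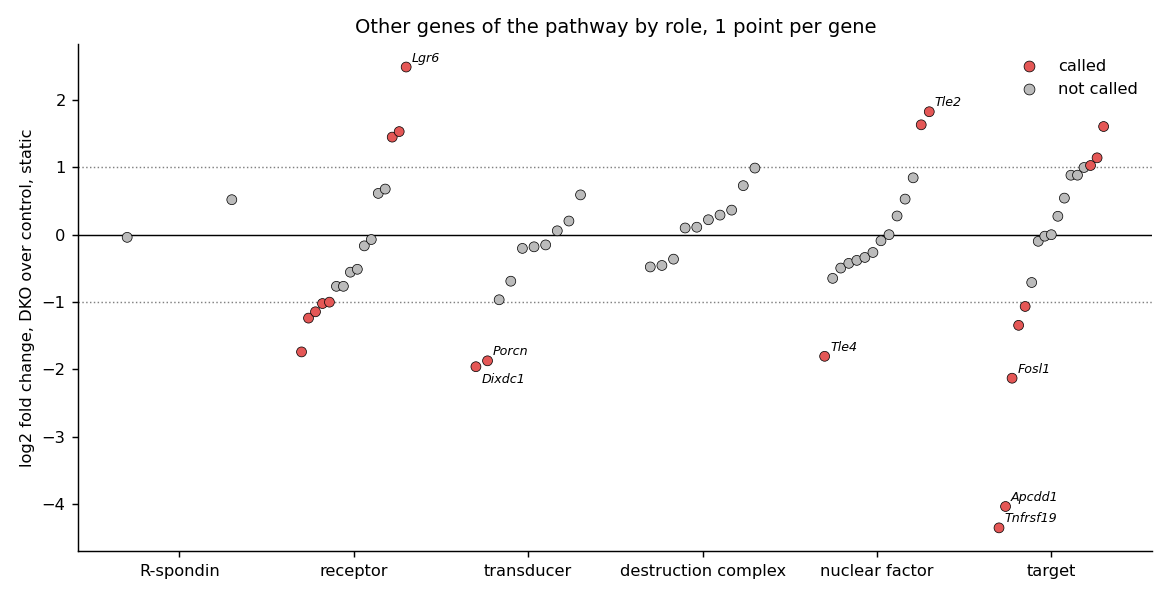
Log2 fold change of DKO over control static cells for the 69 other pathway genes tested, by role, 1 point per gene in rising order (red, called; grey, not called; dotted lines, 2-fold). The destruction complex holds 0 called genes, and the lowest values are those of the targets Tnfrsf19 (-4.36) and Apcdd1 (-4.04).

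FFSS in control cells called 3 of these 69 genes, and 26 passed the adjusted p, 8 higher and 18 lower, shares close to the 5.93% and 35.8% of all genes. Fzd5, a Frizzled receptor, fell by 1.39 ± 0.19 (edgeR adjusted p = 0.000493) and Dixdc1 by 1.52 ± 0.23 (edgeR adjusted p = 0.000954). Ccnd2 was called higher (1.59 ± 0.46, edgeR adjusted p = 0.0261), but its FFSS libraries held 362 to 1816 counts and overlapped the static ones, and the value was -0.26 with the share of reads outside genes as a covariate. It also missed the threshold without any 1 of the 3 control static libraries or control FFSS replicate 2 or 3 (1.20 to 1.68, adjusted p = 0.0593 to 0.0833). Without control FFSS replicate 1 the list had 7 called and 44 past the adjusted p, where 11.3% and 55% of all genes were. In DKO cells 0 of 69 were called (0.0872% of all genes) and 1 passed (0.872%), Tbx3 (0.48 ± 0.10, edgeR adjusted p = 0.0450), named after its value was seen because it was the only such gene. The list held 0 genes past the adjusted p when any 1 of the static or DKO FFSS libraries was left out or the replicate block was added. It held 10 without control FFSS replicate 1 (10.5% of all genes), 12 with the 6 DKO libraries alone (11.9%) and 9 with the covariate (9.49%), of which 1, 1 and 0 were called. For the interaction 6 of 69 passed (3.97% of all genes) and 1, Fzd5, was called (0.651%), at a difference of the FFSS effects of 1.16 ± 0.26 (edgeR adjusted p = 0.0386). Without control FFSS replicate 1 these were 33 and 7, where 37.6% and 7.6% of all genes were, and no gene was called when any 1 of the other 11 libraries was left out. Only 2 or 3 passed without any 1 control static or DKO FFSS library, or without DKO static replicate 1 or 2 (1.2 to 1.58% of all genes). DESeq2 passed 12 (7.54%), and the covariate fit passed 10 (5.76%) and called 0.

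Promoter sequences are shown for the genes with the largest genotype differences and for the windows that hold a TCF/LEF motif. Windows of the 250 bases before a RefSeq transcription start were taken for 8 of the 10 genes, 14 windows in all, and each matched the mm9 genome once. Lrp5 and Lrp6 had no entry. The motif was searched as CTTTGAA or CTTTGAT or CTTTGTA or CTTTGTT on both strands. It was found in 2 of the 14 windows (14.3%), beside 4874 of 32851 windows of all genes (14.8%). The windows printed run 5′ to 3′ toward the gene, and capitals mark a motif match. The windows of Axin2 (chr11:108781413-108781662, plus strand), Nkd2 (chr13:73985080-73985329, minus strand) and Lgr4 (chr2:109757554-109757803, plus strand) end at the annotated gene start and hold no match. That of Nkd1 (chr8:91051282-91051531, plus strand) lies within the annotated gene, in no exon, and holds no match. Internal windows of Lef1 (chr3:130858962-130859211, plus strand) and Tcf7l2 (chr19:55969561-55969810, plus strand), both in no exon, hold CTTTGTA on the minus strand at -147, printed as its reverse complement, and CTTTGTT on the plus strand at -14 from the start. A match is a run of letters and not a measured binding site.
Axin2: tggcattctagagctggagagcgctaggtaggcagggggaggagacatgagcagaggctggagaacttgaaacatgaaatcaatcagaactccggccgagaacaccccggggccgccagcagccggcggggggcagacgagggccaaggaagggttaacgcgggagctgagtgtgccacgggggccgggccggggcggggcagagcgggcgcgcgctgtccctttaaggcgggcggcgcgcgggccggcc
Nkd1: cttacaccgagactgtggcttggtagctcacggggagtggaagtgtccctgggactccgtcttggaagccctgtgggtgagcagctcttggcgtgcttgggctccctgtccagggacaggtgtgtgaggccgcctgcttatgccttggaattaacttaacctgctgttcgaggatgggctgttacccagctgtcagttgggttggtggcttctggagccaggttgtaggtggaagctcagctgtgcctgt
Nkd2: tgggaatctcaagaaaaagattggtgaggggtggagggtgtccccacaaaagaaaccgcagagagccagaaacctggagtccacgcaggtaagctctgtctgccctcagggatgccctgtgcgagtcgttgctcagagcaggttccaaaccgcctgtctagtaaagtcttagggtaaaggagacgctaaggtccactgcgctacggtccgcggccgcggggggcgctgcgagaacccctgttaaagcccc
Lgr4: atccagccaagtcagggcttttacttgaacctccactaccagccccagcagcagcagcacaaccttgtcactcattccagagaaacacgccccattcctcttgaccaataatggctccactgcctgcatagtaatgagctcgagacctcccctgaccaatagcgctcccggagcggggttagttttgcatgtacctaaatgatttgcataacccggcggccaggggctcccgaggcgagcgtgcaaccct
Lef1: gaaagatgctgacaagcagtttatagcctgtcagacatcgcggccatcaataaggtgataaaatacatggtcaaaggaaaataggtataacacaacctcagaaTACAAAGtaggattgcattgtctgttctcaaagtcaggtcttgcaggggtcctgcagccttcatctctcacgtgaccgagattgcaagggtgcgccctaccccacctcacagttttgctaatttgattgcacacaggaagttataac
Tcf7l2: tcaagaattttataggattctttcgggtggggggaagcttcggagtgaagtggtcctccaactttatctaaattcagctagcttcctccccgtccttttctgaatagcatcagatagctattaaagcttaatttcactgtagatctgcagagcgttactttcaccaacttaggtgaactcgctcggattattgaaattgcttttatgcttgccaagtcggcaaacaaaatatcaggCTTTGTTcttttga

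The genes whose log2 CPM followed Axin2 and Nkd1 most closely were found among 11404 genes with an average log2 CPM above 1. Over the 12 libraries Gli2 (Pearson's r = 0.998), Col3a1 (0.996) and Kif18b (0.996) were most like Axin2, and 194 genes exceeded 0.98. For Nkd1 the nearest were Taf5l (0.995), Trim16 (0.994) and Psmd4 (0.994), with 130 genes above 0.98. These values describe mostly the difference between control and DKO libraries, which all such genes share. Taken as deviations from the 4 group means, the nearest genes were others: Chaf1b (0.973), 5430437P03Rik (0.955) and Timm17b (0.951) for Axin2, and Zfp511 (0.950), Dysf (0.891) and Egfl7 (0.877) for Nkd1. The values are given as a description with no test, since libraries of a group share their cells and treatment. They are also the highest of 11404 over 12 libraries, and Nkd1 had only 2 to 9 counts in DKO libraries.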

How the data were processed

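The authors sequenced short single-end reads, aligned them to mm9 with STAR and deposited HTSeq counts, whole-number read counts per Ensembl gene and library. The deposited counts are named as not stranded, so reads of overlapping genes on opposite strands cannot be told apart. The closing HTSeq lines (no feature, ambiguous and the like) were kept out of library sizes, and reads outside genes were 4.25 to 8.53% of all lines. Genes with 0 counts in 2 or more of 12 libraries were removed, leaving 14904 of 24360 genes with any count, a filter that also removed 193 genes with a group mean of at least 10. The 4 groups were fitted together with edgeR 4.0.16 in R 4.3.3 (TMM factors, robust quasi-likelihood F test, Benjamini-Hochberg adjustment over all genes tested), the study's thresholds of 0.05 and 2-fold were used, and standard errors were derived from the F statistics. CPM used TMM-scaled totals, log2 CPM a prior count of 2, and RPKM the exon union of GENCODE vM1 models on the same build. Promoter windows came from RefSeq and were placed in mm9 by exact match. The fit was tested on simulated data first. DESeq2 1.42.0, other scalings and filters, a covariate, a replicate block, 6-library fits and leaving out each library were the alternatives.

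The 10 genes and all gene lists were chosen with earlier results of these data known. All 10 were named. Of the pathway list, the called genes with an average log2 CPM above 1 were eligible, the 2 highest and 2 lowest of each role for static cells and the 3 highest and 3 lowest of the list for FFSS in control cells. Genes most like Axin2 and Nkd1 were the nearest 3 by Pearson correlation. Depth was 17.6 to 19.2 M gene counts per library, and intervals of ratios cover counting error only.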

Additional observations from a re-analysis of the deposited data

How the results depend on the processing

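Of 990 fits of a log2 fold change under the alternatives, 928 kept direction and side of the threshold, 24 no longer passed, 26 newly passed and 12 changed sign. The sign changes were in Lrp6, Lef1, Nkd2 and Ctnnb1. Lrp6 in the interaction was -0.10 under library totals alone, -0.0073 with filterByExpr and -0.0477 to 0.0772 leaving out 1 library each, below 0 without control static replicate 1, DKO static replicate 1, control FFSS replicate 1 or 2 or DKO FFSS replicate 1. Lef1 in the interaction was -0.40 to 0.0294 leaving out 1 library, the highest without control FFSS replicate 1. Nkd2 for FFSS in DKO cells was 0.00857 with the share outside genes as a covariate and -0.45 to 0.0219 leaving out 1 library, the highest without DKO FFSS replicate 2. Ctnnb1 was 0.0883 in static cells with that covariate and -0.0465 under FFSS with library totals alone. Outside the 10 genes, Ccnd2 for FFSS in control cells went from 1.59 to -0.26 with the covariate. The cause of these sign changes was not tested. The share outside genes differed between the groups, so fits with it do not separate it from FFSS or genotype. Library totals alone moved the median of all genes by 0.124 in the FFSS effect of control cells, -0.114 in the interaction and -0.196 in the genotype effect under FFSS. For FFSS in control cells the genes past the adjusted p were 5 of 10 with the covariate (15.4% of all genes) and 4 with 6 libraries (16.5%), where the full fit gave 8 and 35.8%, and 7 to 9 leaving out 1 library (24.2 to 55%), with 0 to 3 called (3.3 to 11.3%). For FFSS in DKO cells the genes past the adjusted p were 1 with the covariate (9.49%), 4 with 6 libraries (11.9%) and 0 to 5 leaving out 1 library (0.0866 to 10.5%). For the interaction they were 1 with DESeq2 (7.54%), 1 with the covariate (5.76%; Lef1, -0.56) and 0 to 6 leaving out 1 library (1.2 to 37.6%), with 0 to 3 called (0.28 to 7.6%), and 6 libraries could not give it. Over all alternatives, the genotype comparison called 7 to 8 genes in static cells (10.8 to 16.9% of all genes) and passed 9 to 10 (33.4 to 65.3%), and under FFSS 6 to 7 (12.2 to 20.1%) and 8 to 10 (34.7 to 65%). Samples with the same replicate number did not deviate together (mean r -0.00974, 1 of 18 pairs over 0.1), and with the replicate block 1 gene was called for FFSS in control cells (5.92% of all genes), 7 for genotype in static cells (15.2%), 6 for genotype under FFSS (17.1%) and 0 for FFSS in DKO cells (0.0939%) and for the interaction (0.564%), which changed no call of the 10 genes. Of the pathway list, Tbx3 for FFSS in DKO cells did not pass with the block. Nkd1 in DKO cells, with 2 to 9 counts a library, is limited by depth.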
